A study of Mus musculus with 2 samples.

Results

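Spinal cord progenitors are the dividing neuroepithelial cells of the caudal neural tube. They were taken here from single-cell RNA sequencing of whole mouse embryos at embryonic day 9.5 (E9.5), and their members were chosen by a rule on detected transcripts. A cell with 200 to 6000 detected genes was a member if it held at least 1 unique molecular identifier (UMI, 1 captured transcript) of at least 2 of the 6 neural genes Sox1, Sox2, Sox3, Pax6, Fgfbp3 and Scube2, and of at least 1 of the 7 trunk Hox genes Hoxa7, Hoxb7, Hoxb8, Hoxb9, Hoxc6, Hoxc8 and Hoxc9. A cell with any UMI of Otx2 (forebrain and midbrain), Meox1 (somites) or Shh (notochord and floor plate) was left out. Of 28179 cells, 417 were members, 151 of 15161 wild-type and 266 of 13018 Usb1-null cells.

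There was 1 library per genotype, made from dissociated whole E9.5 embryos and barcoded with the 10x Genomics 3′ v3.1 chemistry, which reads each transcript near its 3′ end. The Usb1-null embryos carried a germline knockout made with guide RNAs around exon 2 of Usb1, the gene for the nuclease that trims the U6 small nuclear RNA, and came from crosses between heterozygotes. The study's figure legend gives exons 1 and 2 as the deleted part. No source used here gives the strain or the number of embryos pooled in a library, and the labels call the molecule nuclear RNA although the protocol describes whole cells in suspension. With 1 library per genotype no test between genotypes was possible, and the 95% intervals given with counts, shares and ratios cover counting error only.

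Position in the neural tube is set along both axes. Hox genes of increasing paralog number are switched on from the hindbrain to the tail under retinoic acid, Wnt and FGF signals. Across the tube, Sonic hedgehog from the notochord and floor plate induces ventral identities, and BMP and Wnt proteins from the roof plate induce dorsal ones. Progenitors divide at the inner surface and leave the cycle as neurons, a step that proneural factors drive and Notch signalling restrains.

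The libraries differed in ways that bear on every value below. Members held a median of 1621 UMIs and 1269 genes if wild-type and 2728 UMIs and 1885 genes if Usb1-null, against medians of 1243 and 2300 UMIs over all cells. Summed over members, the wild-type library gave 285834 UMIs and the Usb1-null library 820916. Of the members' UMIs, 0.406% of wild-type and 0.150% of Usb1-null ones were mitochondrial. Xist, the RNA that silences an X chromosome in female cells, had 776 UMIs in wild-type members and 0 in Usb1-null members, whereas the Y-linked Uty had 0 and 281 and Ddx3y 0 and 76. Embryo sex and genotype therefore cannot be told apart in these pools. Usb1 itself gave 2 UMIs in wild-type and 0 in Usb1-null members, too few to check the labels. The libraries had 61 barcodes in common, of which 0 were members in both, while 4 member barcodes occurred among all barcodes of the other library.

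Most members sat close to the threshold of the rule. Exactly 2 of the neural genes were detected in 118 of 151 wild-type and 154 of 266 Usb1-null members, and exactly 1 of the trunk Hox genes in 122 and 179. The lowest evidence the rule accepts, 1 UMI each of a pair of neural genes and of 1 Hox gene, made up 56 wild-type and 41 Usb1-null members. Just outside lay 238 and 261 cells with a Hox gene but only 1 neural gene, and 786 and 953 cells with the neural genes but no trunk Hox gene. Otx2, Meox1 or Shh removed a further 11 wild-type and 26 Usb1-null cells.

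The genes of the rule are given as a description, since they chose the cells. Pax6, a homeodomain factor of the intermediate and ventral tube, was detected in 70.2% of wild-type and 67.7% of Usb1-null members, and Scube2, a secreted protein that releases Sonic hedgehog, in 54.3% and 55.3%. Sox2, the factor that keeps neural cells in the progenitor state, was detected in 45.0% and 49.6%, and Fgfbp3, which codes for a secreted FGF-binding protein, in 43.7% and 62.8%, a Usb1-null to wild-type ratio of 1.44 (1.07 to 1.94). Sox1 was found in 9.93% and 10.9% and Sox3 in 5.96% and 7.14%. In cells with 3 or more endothelial markers, which should lack these genes and had median depths of 1467 and 2646 UMIs, the shares were 2.05% and 3.91% for Pax6, 1.41% and 1.57% for Scube2, 3.08% and 3.26% for Sox2 and 2.18% and 6.39% for Fgfbp3. The Fgfbp3 ratio in these endothelial-marker cells was 2.93 (1.66 to 5.42). Among the Hox genes Hoxb9 led, in 50.3% of wild-type and 40.2% of Usb1-null members. It was followed by Hoxc6 in 17.9% and 32.3%, a ratio of 1.81 (1.16 to 2.90), with 4.74 (1.32 to 25.7) in endothelial-marker cells. The remaining 5 were each found in fewer members, from Hoxc9 in 7.95% and 9.40% up to Hoxa7 in 15.2% and 21.1%.

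Genes that the rule did not use leaned towards a neural profile. Levels are given as CPM, the UMIs of a gene for each 1000000 UMIs summed over the cells of a set. Against trunk cells, which held a trunk Hox gene and none of the 6 neural genes (1077 wild-type and 1171 Usb1-null cells), 193 of 10971 genes (1.76%) were at least 2-fold higher in the progenitors of both libraries and 373 (3.40%) at least 2-fold lower. Of 18 general progenitor genes, 11 were higher in both libraries, 2 of them at least 2-fold, and 3 were lower. Their medians were 0.41 and 0.38 log2 units. Of 8 neuronal genes, 3 were higher in both libraries and 3 lower. The genes named next were picked after their values were seen. Rfx4, a regulator of neural tube patterning, reached 521 and 495 CPM in wild-type and Usb1-null progenitors and 103 and 86.7 CPM in the trunk cells. Dcc, a netrin receptor of growing axons, reached 3569 and 2686 CPM against 502 and 262 CPM, and the neural adhesion gene Nrcam 623 and 799 CPM against 93.1 and 93.1 CPM. Higher levels were also found for Sox2ot, which overlaps the rule gene Sox2 and may share its reads, at 668 and 423 CPM against 137 and 73.0 CPM. The trunk cells were not filtered for Otx2, Meox1 or Shh, so cells with the somite gene Meox1 were left out of the progenitors alone. How far this filter sets the levels that follow was not tested. The somite gene Uncx was at 0 in the progenitors of both libraries and at 28.6 and 22.3 CPM in the trunk cells. Twist2, a factor of mesenchyme, was at 3.50 and 6.09 CPM in the progenitors and 60.0 and 45.8 CPM in the trunk cells.

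Markers of most tissues outside the neural tube were lower than in the other cells. Of 11 classes outside the neural tube, 3 or more markers of 1 class occurred in 10 wild-type members (6.62%, 3.22 to 11.8) and 11 Usb1-null members (4.14%, 2.08 to 7.28), against 17.1% and 19.2% of all cells. Summed somite markers were at 35.0 and 36.5 CPM in the progenitors of the wild-type and Usb1-null libraries, against 125 and 121 CPM in the other cells. Cells with Meox1 were kept among the other cells. Summed endothelial markers were at 126 and 124 CPM, against 437 and 411 CPM. The levels were closer for intermediate mesoderm markers, at 73.5 and 112 CPM against 90.5 and 124 CPM in the other cells, and for blood and megakaryocyte markers, at 20.99 and 15.8 CPM against 17.25 and 18.1 CPM. Within the neural tube, hindbrain markers, a list with Hoxb3 and Hoxd3, were higher in both libraries' progenitors. Their sums were 959 and 961 CPM, against 314 and 363 CPM in the other cells. Of the members, 21 wild-type and 72 Usb1-null ones held 3 or more hindbrain markers. Floor plate markers were higher in the wild-type library alone, with 749 and 491 CPM against 518 and 516 CPM. Erythroid markers differed between the libraries, at 308 and 80.4 CPM in the progenitors and 892 and 228 CPM in the other cells, and Hbb-y and Hba-x, the embryonic globins, were 40 and 23 of the wild-type UMIs and 14 and 17 of the Usb1-null UMIs. Scrublet marked 20 wild-type members (13.2%) and 21 Usb1-null members (7.89%) as doublets, above the 6.76% and 4.30% of all cells, and they were kept. The rule was met by 2 of 684 wild-type and 0 of 224 Usb1-null cells with 3 erythroid markers (an upper limit of 1.63%), and by 2 of 779 and 3 of 767 cells with 3 endothelial markers, or 0.257% and 0.391%.

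Members were 0.996% of wild-type cells (0.844 to 1.17) and 2.04% of Usb1-null cells (1.81 to 2.30), a ratio of 2.05 (1.67 to 2.52). The ratio was smaller in each setting of depth that follows, and where it fell below 1 its interval included 1. When each cell with at least 1000 UMIs was thinned to 1000 UMIs, the rule was met on average over 100 draws by 41.4 of 10188 wild-type cells (0.406%) and 55.5 of 12406 Usb1-null cells (0.448%), a ratio of 1.10 (0.724 to 1.69). When all cells were thinned to 500 UMIs, averages of 18.4 and 10.7 cells were left, a ratio of 0.680 (0.288 to 1.52). In unthinned cells grouped by their UMIs, the Usb1-null share was 0.542 of the wild-type share at 500 to under 1000 UMIs (0.0627 to 2.14), 1.60 times it at 1000 to under 2000 UMIs (1.12 to 2.29), 1.18 times it at 2000 to under 4000 UMIs (0.841 to 1.68) and 1.00 times it at 4000 or more (0.453 to 2.63). A difference in the share of spinal cord progenitors was thus not detectable after thinning to equal depth. Among the UMI ranges, which match depth only roughly, the interval excluded 1 in cells of 1000 to under 2000 UMIs alone. There 68 of 7646 wild-type cells (0.889%) and 63 of 4430 Usb1-null cells (1.42%) were members. Within the cells that held at least 2 neural genes and none of the dropped genes, a trunk Hox gene was found in 151 of 937 wild-type cells (16.1%) and 266 of 1219 Usb1-null cells (21.8%).

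**Figure D1:**
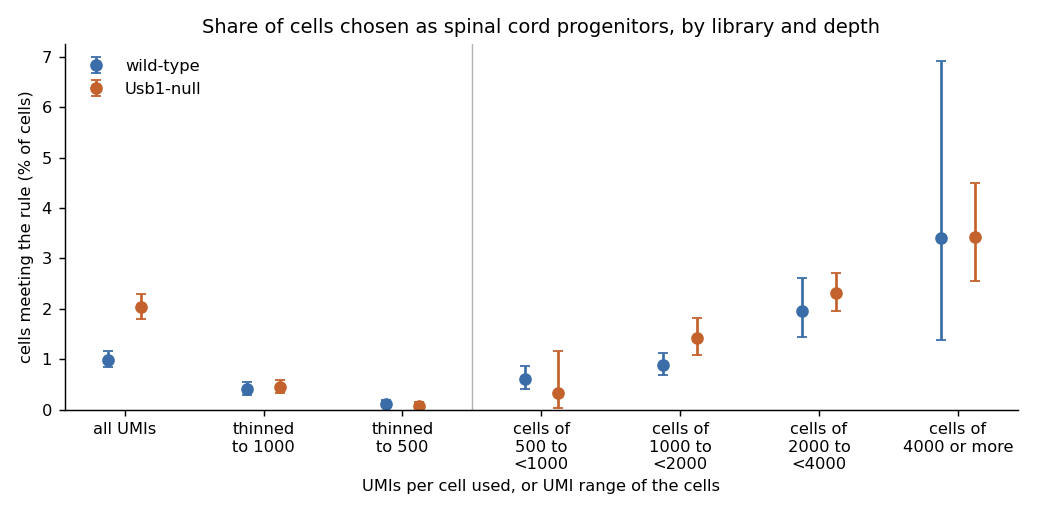
Share of cells chosen as spinal cord progenitors (percent, y axis) in the wild-type and Usb1-null libraries, for the cells as deposited, after thinning and within ranges of UMIs per cell (x axis). Points are shares and bars exact 95% binomial intervals, which cover counting error only. The libraries differ at deposited depth, 0.996% against 2.04%, and overlap after thinning to 1000 UMIs, 0.406% against 0.448%.

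The Hox genes beyond the rule placed the progenitors along the axis. For comparison, hindbrain-like cells were cells with at least 2 of the 6 neural genes, no trunk Hox gene of the rule, no dropped gene and at least 1 gene of a hindbrain list that includes Egr2, Hoxa2, Hoxb1, Hoxb2, Hoxa3, Hoxb3 and Hoxd3 (413 wild-type and 646 Usb1-null cells), and Otx2 neural cells held the neural genes with Otx2 and no trunk Hox gene (97 and 194 cells). Summed over genes, paralog group 4 reached 665 CPM (574 to 766) in wild-type progenitors and 624 CPM (571 to 680) in Usb1-null progenitors, against 443 and 243 CPM in hindbrain-like cells and 27.7 and 18.3 CPM in Otx2 neural cells. Group 5 was at 133 and 135 CPM, against 35.1 and 58.2 CPM in hindbrain-like cells. Both groups were higher in the progenitors of each library, with intervals that did not overlap those of hindbrain-like cells. Group 3, part of which defined the hindbrain-like cells, was at 857 and 833 CPM in the progenitors and 926 and 758 CPM there.

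At the caudal end few transcripts were detected. Group 10 genes had 0 UMIs in wild-type progenitors (an upper limit of 12.9 CPM) and 8 UMIs in Usb1-null progenitors (9.74 CPM, 4.21 to 19.2), and groups 11 to 13 had 0 in both libraries. The trunk cells had group 10 at 9.53 CPM (5.55 to 15.3) and 12.2 CPM (8.72 to 16.6), and these intervals overlapped those of the progenitors. Of the 3 posterior Hox genes outside the rule with at least 50 UMIs in this comparison, 2 were lower in the progenitors than in trunk cells in both libraries, Hoxa9 at ratios of 0.728 (0.491 to 1.05) and 0.655 (0.513 to 0.827) and Hoxd9, with 1 and 3 UMIs, at 0.164 (0.0041 to 0.972) and 0.255 (0.0507 to 0.791). Hoxa9, the only group 9 gene outside the rule with at least 20 UMIs, was at 116 CPM in progenitors of the wild-type and 101 CPM in those of the Usb1-null library, and at 26.7 and 19.0 CPM in hindbrain-like cells.

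**Figure D2:**
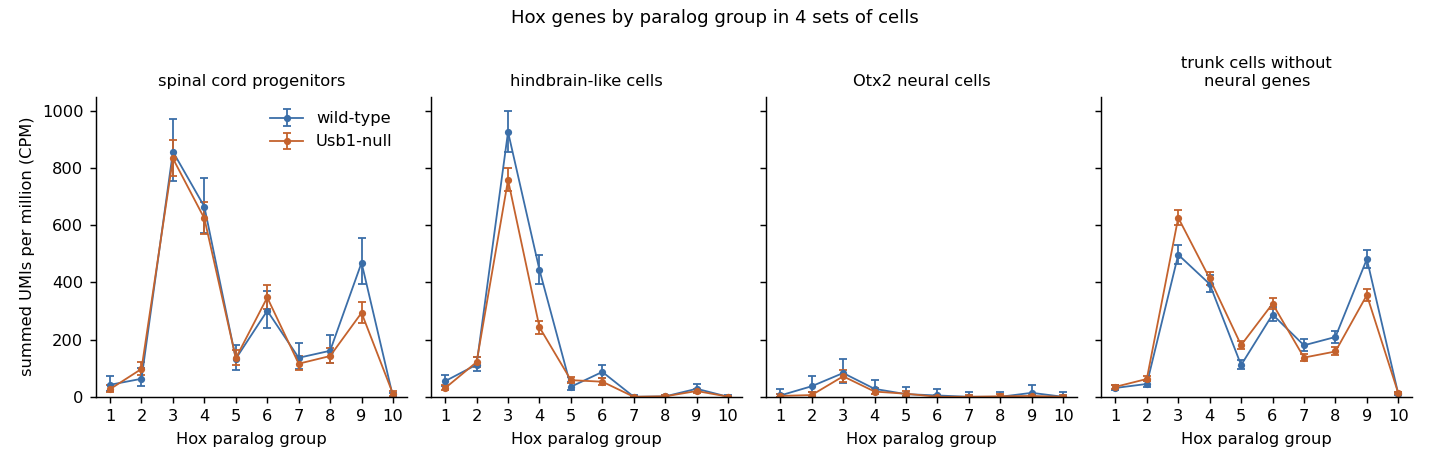
Summed Hox transcripts by paralog group (x axis, groups 1 to 10) in CPM (y axis) for spinal cord progenitors, hindbrain-like cells, Otx2 neural cells and trunk cells of both libraries. Bars are exact 95% Poisson intervals of the summed UMIs. Groups 7 to 9 mostly hold genes of the rule and are a description, whereas group 4 reaches 665 and 624 CPM in the progenitors and 443 and 243 CPM in hindbrain-like cells.

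Apart from Hox genes, the progenitors differed from hindbrain-like cells in few genes. Of 9330 genes with at least 50 UMIs, 22 (0.236%) were at least 2-fold higher in the progenitors of both libraries and 35 (0.375%) at least 2-fold lower. Of the 7 measured anterior Hox genes that defined neither set, 7 were higher in both libraries and 4 at least 2-fold, with medians of 1.39 and 1.39 log2 units. Among them Hoxb6 was at 203 and 224 CPM against 84.2 and 52.2 CPM, and Hoxc4 at 192 and 201 CPM against 73.0 and 51.1 CPM. Hoxb5os, an antisense RNA of the HoxB cluster, was at 157 and 172 CPM against 54.7 and 34.8 CPM. Outside the clusters, Sema3e, a secreted guidance cue, was at 73.5 and 140 CPM against 18.2 and 30.4 CPM, log2 differences of 1.95 and 2.17. The planar polarity gene Prickle1 was at 378 and 326 CPM against 175 and 133 CPM, and Kif26b, a kinesin family gene, at 182 and 197 CPM against 67.3 and 91.9 CPM. Dlgap2, which encodes a synaptic scaffold, and the unannotated transcripts 9030622O22Rik and Gm11149 were the other named genes that were higher in the progenitors of both libraries.

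Among genes with at least 100 UMIs, the gene lowest against hindbrain-like cells by the smaller of the 2 libraries' differences was Cyp26b1. This enzyme, which degrades retinoic acid, was at 17.5 and 34.1 CPM in the progenitors and at 139 and 194 CPM in hindbrain-like cells, log2 differences of -2.92 and -2.48. In the wild-type library alone Stxbp5l was lower still, with log2 differences of -3.35 and -1.38. Rarb, a retinoic acid receptor that is itself induced by the ligand, was at 577 and 452 CPM against 841 and 636 CPM, ratios of 0.687 (0.575 to 0.817) and 0.710 (0.630 to 0.799). Crabp1, which binds retinoic acid in the cytoplasm, had ratios of 0.438 (0.223 to 0.796) and 0.499 (0.332 to 0.733). Aldh1a2, the enzyme that makes retinoic acid, had ratios of 1.70 (0.820 to 3.43) and 2.36 (1.61 to 3.46), the latter beyond counting error. Of 9 measured genes of the pathway, 2 were higher in the progenitors of both libraries and 4 lower. Tox, a nuclear factor of the HMG-box family, was at 325 and 233 CPM in the progenitors against 790 and 570 CPM.

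Most general progenitor genes differed by less than 2-fold between the spinal cord progenitors and hindbrain-like cells. Of 19 measured genes of the list, 4 were higher in both libraries, 11 lower and 1 at least 2-fold lower, with medians of -0.16 and -0.08 log2 units. Cdh2, the neural cadherin, had ratios of 1.05 (0.929 to 1.18) and 1.02 (0.945 to 1.09), and Hes5, a Notch target, 0.894 (0.627 to 1.26) and 0.883 (0.698 to 1.11). Lrrn1, a membrane protein, was the gene at least 2-fold lower, at 56.0 and 24.4 CPM against 118 and 96.8 CPM, ratios of 0.475 (0.260 to 0.817) and 0.252 (0.150 to 0.401). Ncam1, an adhesion molecule, was higher, at 647 and 581 CPM against 359 and 308 CPM, ratios of 1.80 (1.48 to 2.19) and 1.89 (1.67 to 2.13).

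Against Otx2 neural cells, 79 of 7362 genes (1.07%) were at least 2-fold higher in the progenitors of both libraries and 92 (1.25%) at least 2-fold lower. Hox genes and their neighbours led the higher group, with Hoxd4 at 280 and 244 CPM against 9.23 and 6.09 CPM and Hotairm1, an RNA of the HoxA cluster, at 102 and 87.7 CPM against 9.23 and 6.09 CPM. The lower group was led by Cdh8, a cadherin, at 10.5 and 4.87 CPM against 203 and 120 CPM, and included Apcdd1, an inhibitor of Wnt signalling, at 28.0 and 20.7 CPM against 217 and 180 CPM. Otx2os1, which overlaps the gene used to define this set, was at 35.0 and 8.53 CPM against 231 and 232 CPM. All 4 measured genes of the forebrain and midbrain list were at least 2-fold lower in the progenitors of both libraries.

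Detected markers divided the members along the dorsoventral axis. At least 1 of the dorsal factors Pax3, Pax7, Msx1 and Msx2 was found in 62 wild-type (41.1%, 33.1 to 49.4) and 134 Usb1-null members (50.4%, 44.2 to 56.5), and at least 1 of the ventral factors Nkx6-1, Nkx6-2, Olig2, Nkx2-2, Nkx2-9 and Foxa2 in 22 (14.6%, 9.36 to 21.2) and 30 (11.3%, 7.74 to 15.7). After thinning to 1000 UMIs the dorsal shares were 35.0% and 30.7% and the ventral shares 8.49% and 4.82%, and the interval of the ratio between libraries included 1 before and after thinning. In endothelial-marker cells thinned alike, dorsal factors were found in 6.19% and 5.89% and ventral ones in 0.914% and 0.936%, below the members in each case. The dorsal share was similar in hindbrain-like cells, at 40.9% and 49.7%. Dorsal and ventral factors occurred together in 3 wild-type and 4 Usb1-null members, dorsal factors alone in 59 and 130, ventral factors alone in 19 and 26, and neither in 70 and 106.

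Some Hedgehog pathway genes, none of which defined these subsets, differed between dorsal-only and ventral-only progenitors. Ptch1, Gli3, Boc and Cdon had a ratio whose interval excluded 1 in both libraries, Gli1 and Gas1 in the Usb1-null library alone, and Gli2, Smo and Sufu in neither. Ptch1, the receptor that hedgehog signalling induces, was at 293 CPM in dorsal and 877 CPM in ventral wild-type progenitors, a dorsal to ventral ratio of 0.334 (0.207 to 0.537), and at 407 and 1694 CPM in Usb1-null progenitors, a ratio of 0.240 (0.191 to 0.302). Gli1, the transcriptional activator induced by the same signal, was at 38.6 and 161 CPM in dorsal and ventral Usb1-null progenitors, a ratio of 0.240 (0.110 to 0.538), and had 2 UMIs in each wild-type subset. The pathway's repressor and co-receptors ran the other way.
Gli3, which acts mainly as a repressor of the pathway, was at 1213 and 570 CPM in dorsal and ventral wild-type cells and at 1007 and 383 CPM in Usb1-null cells, ratios of 2.13 (1.40 to 3.36) and 2.63 (1.82 to 3.91). The co-receptors Boc and Cdon, which hedgehog signalling represses, had ratios of 3.19 (1.27 to 10.3) and 3.62 (1.30 to 13.9) in wild-type and 3.55 (1.58 to 9.88) and 3.25 (1.44 to 9.05) in Usb1-null progenitors. In progenitors with neither kind of factor Ptch1, at 514 and 757 CPM, and Gli3, at 798 and 686 CPM, lay between the dorsal and ventral levels. Gli1, at 82.6 CPM from 9 UMIs, and Cdon, at 73.4 CPM, lay outside them in the wild-type library.

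**Figure D3:**
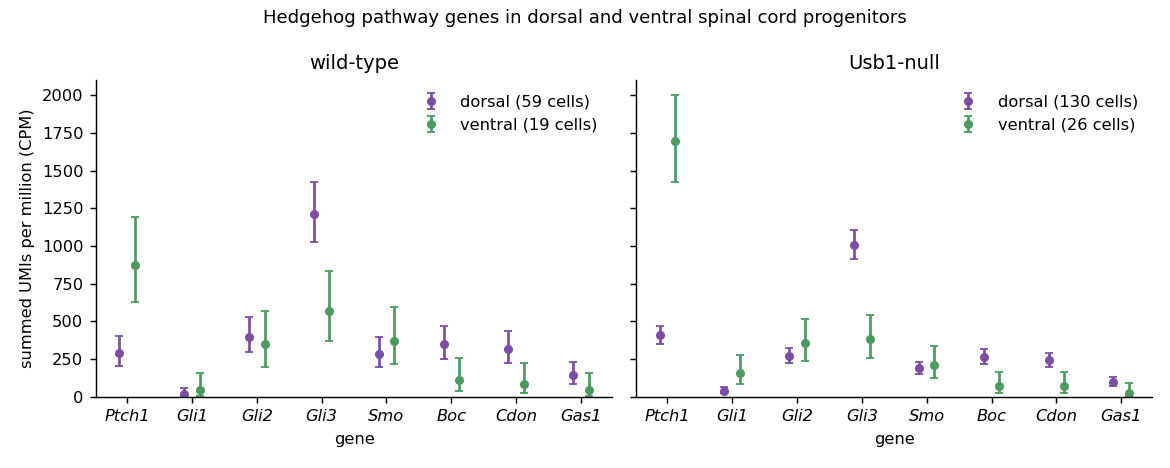
Hedgehog pathway genes (x axis) in CPM (y axis) in dorsal-only and ventral-only progenitors, 1 panel per library. Points are summed levels and bars are exact 95% Poisson intervals. Ptch1 is higher in ventral cells, at 877 and 1694 CPM in the wild-type and Usb1-null panels, and Gli3, Boc and Cdon are higher in dorsal cells.

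Dorsal and ventral progenitors also differed in a neuronal gene. Every gene with at least 20 UMIs in the positional, signalling, Hox, proneural, neuronal and mitosis lists was compared. Those named here were picked after their values were seen, and the ventral subsets held 19 wild-type and 26 Usb1-null cells. Elavl4, an RNA-binding protein of new neurons, was at 40.7 CPM in dorsal and 439 CPM in ventral wild-type progenitors and at 65.9 and 235 CPM in Usb1-null ones, dorsal to ventral ratios of 0.0928 (0.0272 to 0.255) and 0.281 (0.152 to 0.529). The Wnt effector Tcf7l2 had ratios of 0.359 (0.210 to 0.613) and 0.627 (0.425 to 0.948), and the ephrin receptor Epha5 0.186 (0.0571 to 0.534) and 0.443 (0.246 to 0.832). Elavl4 rests on 20 wild-type and 19 Usb1-null UMIs in the ventral cells. Scube2, a gene of the rule, was at 472 and 361 CPM in dorsal and 110 and 111 CPM in ventral progenitors.

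Few progenitors carried signs of differentiation. A proneural factor, such as Neurog2, was found in 6 wild-type (3.97%, 1.47 to 8.45) and 20 Usb1-null members (7.52%, 4.65 to 11.4), and in 1.41% and 0.913% of endothelial-marker cells. At least 2 of 6 neuronal genes, among them Tubb3 and Dcx, were found in 4 (2.65%, 0.726 to 6.64) and 12 members (4.51%, 2.35 to 7.75), against 1.16% and 0.522% of endothelial-marker cells. After thinning, the proneural shares were 1.66% and 2.91% and the neuronal shares 1.79% and 0.599%, with intervals that overlapped between the libraries. In endothelial-marker cells thinned alike, the proneural shares were 0.725% and 0.280% and the neuronal shares 0.391% and 0.0211%. Only the Usb1-null proneural share had an interval apart from that of these cells, 1.24 to 5.72 against 0.0374 to 0.974. The factors of the tail bud, T, Nkx1-2, Cdx2 and Fgf8, were found in 1.99% and 4.89% of members and 1.54% and 4.69% of endothelial-marker cells, a level read as background over all members. In members with at least 2 Hox genes 1 of 29 held such a factor if wild-type, or 3.45% (0.0873 to 17.8). If Usb1-null, 10 of 87 did, or 11.5% (5.65 to 20.1), an interval that overlaps that of the endothelial-marker cells (3.31 to 6.44), and these members were not matched for depth. T had 0 and 3 UMIs in all members and Nkx1-2 0 and 4.

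Within the members, those with a Hox gene of group 8 or 9 (112 wild-type and 181 Usb1-null cells) were compared with those with group 6 or 7 alone (39 and 85 cells). Cyp26b1 was at 4.64 and 56.8 CPM in the wild-type library and at 23.2 and 57.3 CPM in the other, on 1 to 15 UMIs each, with ratios of 0.0818 (0.00166 to 0.827) and 0.406 (0.178 to 0.914). Epha5 had 26 UMIs in wild-type members with group 8 or 9 and 0 in those without, and was at 177 and 99.3 CPM in Usb1-null members, a ratio of 1.78 (1.15 to 2.86). Both genes came from a scan of every gene with at least 20 UMIs in the positional, signalling, Hox, proneural, neuronal and mitosis lists. They were the only ones outside the rule whose interval excluded 1 in the same direction in both libraries. How many such a scan gives by counting error alone was not tested.

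Between the genotypes, the progenitors were close in most genes. Of 5213 genes with at least 50 UMIs, 97.1% differed by less than 2-fold, 106 (2.03%) were at least 2-fold higher in Usb1-null progenitors and 48 (0.921%) at least 2-fold lower. The median log2 ratio of Usb1-null over wild-type was near 0, at -0.004. Among the 106 were 4 Y-linked genes, and among the 48 were 6 of 9 measured mitochondrial genes, which move with the differences in sex and mitochondrial share given above.

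The genes that were highest in Usb1-null progenitors were in most cases also higher in the other cells of that library. Casp8, the initiator caspase of death receptors, had 7 wild-type and 159 Usb1-null UMIs, or 24.5 and 194 CPM, a ratio of 7.91 (3.75 to 19.99), with 3.63 in the other cells. Its log2 ratio was 2.93, and 1.43 in members with at least 2 Hox genes. Xaf1, an interferon-induced gene linked to cell death, was at 52.5 and 283 CPM, a ratio of 5.38 (3.20 to 9.78), with 2.77 in the other cells. Churc1, a zinc finger gene, was at 28.0 and 114 CPM, a ratio of 4.09 (1.99 to 9.75), with 2.52 in the other cells. Its log2 ratio of 1.99 was 0.16 in members with at least 2 Hox genes.
Gm42418 and AY036118 lie over a ribosomal RNA repeat and took 2113 and 1074 CPM of wild-type progenitors and 9619 and 4930 CPM of Usb1-null progenitors, ratios of 4.55 (4.19 to 4.95) and 4.59 (4.09 to 5.17). Lars2, the mitochondrial leucyl-tRNA synthetase, was at 116 and 574 CPM, a ratio of 4.97 (3.49 to 7.30), with 4.15 in the other cells, and AC160336.1 had 5 and 124 UMIs. Ttn, the titin gene of muscle, was an exception, with 8 and 93 UMIs, a ratio of 4.05 (1.97 to 9.65) and 1.09 in the other cells. Summed cardiomyocyte markers, a list that includes Ttn, were at 143 CPM (103 to 195) and 196 CPM (167 to 229) in the 2 libraries' progenitors. The Ttn difference was smaller under 4 other settings, where its log2 ratio of 1.98 became 0.30 without cells holding 3 or more markers of another class, 0.76 without marked doublets, 0.75 as a mean over cells and 0.28 after thinning each member to 1000 UMIs. The rule was met by 0 of 506 wild-type and 3 of 446 Usb1-null cells with 3 or more cardiomyocyte markers.

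The genes lowest in Usb1-null progenitors are given among those with at least 100 UMIs and without the genes of the rule, Xist, Tsix and the mitochondrial and Y-linked genes. Gm21887, an X-linked transcript, was at 178 and 63.3 CPM, a ratio of 0.355 (0.237 to 0.533), with 0.402 in the other cells. Prkcsh, a subunit of the glucosidase that trims sugars in the endoplasmic reticulum, was at 280 and 140 CPM, a ratio of 0.5005 (0.373 to 0.674), with 0.562 in the other cells. Zfp934, a zinc finger gene, was at 178 and 92.6 CPM, a ratio of 0.519 (0.359 to 0.755), with 0.936 in the other cells. The remaining 5 were Nckap5, Mir99ahg, Atp6v0c, 2410018L13Rik and Ptdss2, with ratios of 0.480 to 0.511. With at least 2 Hox genes the log2 ratio of Gm21887, -1.48, was -2.30 and that of Nckap5, -1.05, was -2.001.

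**Figure D4:**
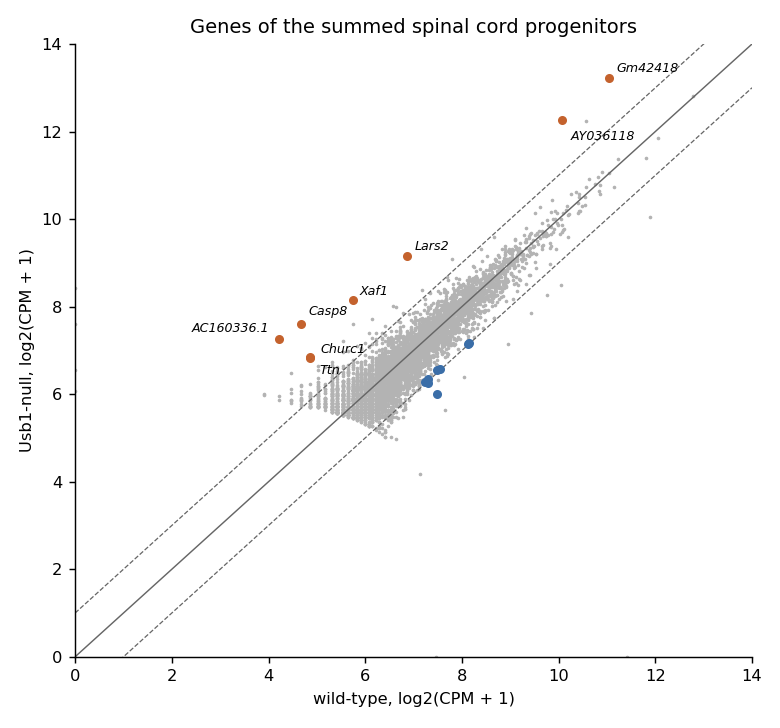
Level of each gene with at least 50 UMIs in wild-type (x axis) and Usb1-null (y axis) spinal cord progenitors, as log2 of CPM plus 1. The solid line marks equal levels, dashed lines 2-fold differences, and orange and blue points the 8 named genes highest and lowest in Usb1-null progenitors. Of 5213 genes, 97.1% lie between the dashed lines.

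Gene lists were read at a lower limit of 20 UMIs, met by 8483 genes, of which 48.5% were higher in Usb1-null progenitors, 5.21% with an interval above 1 and 6.02% with an interval below 1, with a median of -0.02. Of 13 anterior Hox genes, 7 were higher and none by more than counting error, with a median of 0.02, which was 0.73 in members with at least 2 Hox genes and -0.11 without marked doublets. Of 6 dorsal genes, 4 were higher and 1 beyond counting error, Lmx1a of the roof plate with 6 and 41 UMIs, a ratio of 2.38 (1.00 to 6.86), while Pax3 was at 395 and 443 CPM. All 3 intermediate genes were lower, and Irx5 was at 94.5 and 49.9 CPM, a ratio of 0.529 (0.318 to 0.894). Of the ventral genes, Nkx6-1 was at 49.0 and 21.9 CPM, a ratio of 0.448 (0.210 to 0.973), and Sulf1, a sulfatase that modulates hedgehog signalling, at 164 and 262 CPM, a ratio of 1.59 (1.16 to 2.23). Ntn1, the netrin of the floor plate and ventral progenitors, was at 483 and 278 CPM, a ratio of 0.575 (0.464 to 0.716), with 0.923 in the other cells.

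The signalling pathways each held 1 or 2 genes beyond counting error. In the hedgehog list, with a median of -0.17 that was -0.01 after thinning and -0.32 with at least 2 Hox genes, Ptch1 was at 476 and 671 CPM, a ratio of 1.41 (1.17 to 1.72), and Smo, the transducer of the signal, at 280 and 206 CPM, a ratio of 0.736 (0.560 to 0.972). Ptch1 was also higher in Usb1-null cells within the ventral subset, at a ratio of 1.93 (1.35 to 2.82), and within the subset with neither factor, at 1.47 (1.09 to 2.02), while the dorsal subset gave 1.39 (0.966 to 2.05). Its ratio in the other cells of the embryo was 1.27. As a log2 ratio, the Ptch1 difference was 0.50, 0.096 in members that met the rule after thinning to 500 UMIs, and 0.96 with at least 2 Hox genes. Gli2 was lower in Usb1-null cells of the dorsal subset, at a ratio of 0.684 (0.487 to 0.974). Sufu was higher in the subset with neither factor, on 5 and 45 UMIs, at 3.47 (1.38 to 11.2).
The FGF antagonist Spred1 was at 154 and 231 CPM (1.504, 1.08 to 2.14), the BMP effector Smad1 at 91.0 and 146 CPM (1.61, 1.04 to 2.56) and the Wnt transporter Wls at 290 and 385 CPM (1.33, 1.04 to 1.71). The direction of Smad1 was reversed in members with at least 2 Hox genes, where its log2 ratio of 0.68 became -0.054. Rarb was lower, at 577 and 452 CPM (0.783, 0.650 to 0.946), and so were Tcf7l2 (0.790, 0.630 to 0.995) and the Notch receptor Notch3, at 206 and 142 CPM (0.691, 0.501 to 0.961). The median of the FGF list was 0.15. Those of the BMP, Wnt and retinoic acid lists kept no direction, being 0.10, -0.11 and 0.19 over all members but -0.035 for BMP with at least 2 Hox genes, 0.075 for Wnt without marked doublets and -0.032 for retinoic acid without cells holding markers of another class. Of 4 genes of the caudal list, 2 were higher in Usb1-null progenitors and 2 lower. The higher ones, Greb1 (1.81, 1.27 to 2.64) and Epha5 (1.67, 1.09 to 2.66), were beyond counting error, and the lower ones were not. The log2 ratio of Epha5 was 0.74, and 2.14 in members with at least 2 Hox genes.

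Of 18 S phase genes, 3 were higher and 15 lower in Usb1-null progenitors, with a median of -0.39 and -0.13 in the other cells. That median was -0.2006 without marked doublets, -0.2065 after thinning and -0.21 with at least 2 Hox genes. The 2 beyond counting error were E2f1, an activator of S phase genes, at 126 and 71.9 CPM, and Mcm5, a part of the replicative helicase, at 119 and 69.4 CPM. Of 17 mitosis genes, 13 were higher and 4 lower, with a median of 0.27 and -0.14 in the other cells. The 3 beyond counting error were Cenpf, a kinetochore gene, at 150 and 266 CPM (1.76, 1.27 to 2.51), Ube2c, which helps degrade cyclins, with 6 and 47 UMIs (2.73, 1.16 to 7.81) but a ratio of 0.905 in the other cells, and the proliferation marker Mki67 at 301 and 389 CPM (1.29, 1.01 to 1.66). The median of the mitosis list did not hold in members with at least 2 Hox genes, where it was -0.026. Cyclin D genes and cell cycle inhibitors had 3 of 7 genes higher and none beyond counting error, with a median of -0.004.

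Of 15 targets of p53, the regulator of the DNA damage response, 12 were higher in Usb1-null progenitors, with a median of 0.60 and 0.40 in the other cells. The median was 0.34 without marked doublets, 0.38 with at least 2 Hox genes and 0.39 after thinning each member to 1000 UMIs. Their summed level was 780 and 1104 CPM, a ratio of 1.42 (1.22 to 1.65). Single genes were seldom resolved, since 2 of the 15 were beyond counting error. These were Mdm4, an inhibitor of p53, at 157 and 252 CPM (1.60, 1.16 to 2.26), and Eda2r, an X-linked receptor, with 1 and 32 UMIs (11.1, 1.86 to 454). Eda2r was also higher in the other cells, at a ratio of 3.96.

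Of 14 hypoxia genes, 9 were higher in Usb1-null progenitors, 4 beyond counting error, and 3 of the 5 lower ones were too, with a median of 0.25 and 0.15 in the other cells. The median was 0.0057 after thinning and -0.034 as a mean over cells. P4ha1, a collagen prolyl hydroxylase, was at 182 and 325 CPM (1.79, 1.32 to 2.46), the hexokinase Hk2 at 245 and 397 CPM (1.62, 1.25 to 2.13) and Pdk1, a kinase that limits pyruvate oxidation, at 87.5 and 156 CPM (1.78, 1.16 to 2.86). With at least 2 Hox genes the log2 ratio of P4ha1 was 1.45, against 0.83 over all members. Egln1, an oxygen sensor, was at 147 and 87.7 CPM (0.597, 0.403 to 0.895) but had a ratio of 1.17 in the other cells, and Eno1 and the glucose transporter Slc2a1 were also lower. The list thus had no common direction.

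Of 18 genes for U6 processing and the proteins that bind U6, 15 were lower in Usb1-null progenitors, with a median of -0.31 and -0.05 in the other cells, and between -0.23 after thinning and -0.497 with at least 2 Hox genes. Lsm7, a subunit of the ring that holds the U6 3′ end, was at 98.0 and 43.9 CPM, a ratio of 0.448 (0.266 to 0.762), with 0.587 in the other cells, and it was the only member beyond counting error. Of 12 genes of the unfolded protein response 7 were higher, with a median of 0.06, and Sdf2l1 had 4 and 51 UMIs (4.44, 1.63 to 16.9), while it was lower in the other Usb1-null cells at a ratio of 0.842 (0.772 to 0.919). Dissociation stress genes had a median of -0.03 over 5 genes, with Hspa8 at 528 and 413 CPM (0.782, 0.643 to 0.953).

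**Figure D5:**
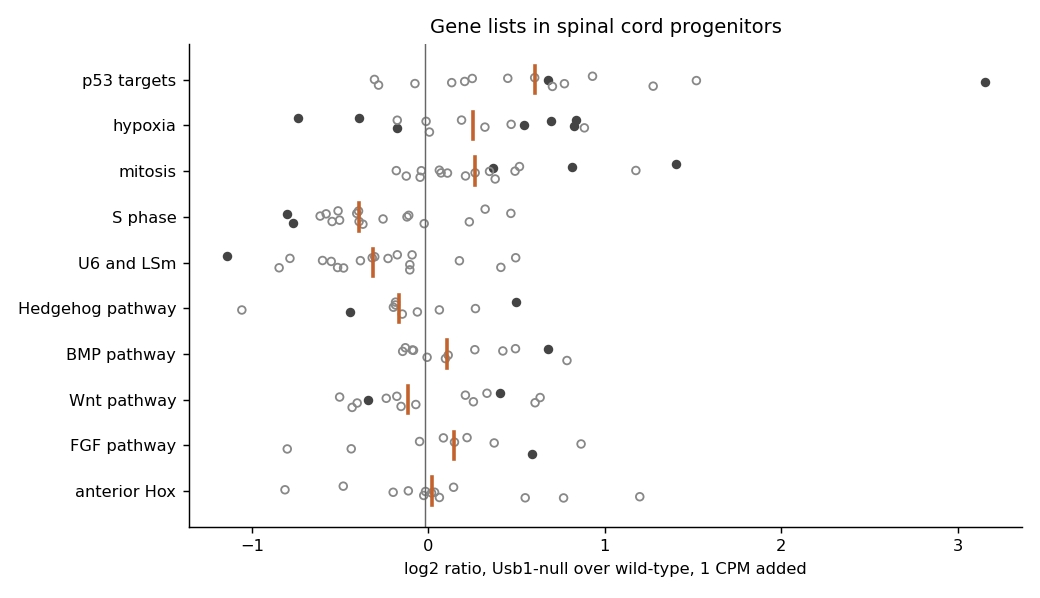
Log2 ratio of Usb1-null over wild-type spinal cord progenitors (x axis, 1 CPM added) for the genes of each list with at least 20 UMIs (y axis, lists). Circles are genes, filled where the counting interval excludes a ratio of 1, orange marks are the list medians, and the vertical line is the median of all 8483 genes. The p53 targets and mitosis genes lie mostly to the right, with medians of 0.60 and 0.27, and the S phase genes mostly to the left, with a median of -0.39. These medians are of all members, and without marked doublets they were 0.34, 0.32 and -0.2006, while that of the mitosis genes was -0.026 with at least 2 Hox genes.

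Most neural progenitor and neuronal genes did not differ beyond counting error. Of 18 progenitor genes 13 were lower in Usb1-null progenitors, 3 of them beyond counting error, with a median of -0.14, equal to that in the other cells. The median was -0.0024 after thinning each member to 1000 UMIs and -0.0015 with at least 2 Hox genes, and the list's summed level had a ratio of 0.970 (0.922 to 1.02). Nes, an intermediate filament of progenitors, had 16 and 18 UMIs (0.392, 0.189 to 0.821), Lrrn1, a membrane protein, 16 and 20 UMIs (0.435, 0.214 to 0.898), and Sox4 was at 192 and 134 CPM (0.696, 0.499 to 0.981). Of 5 neuronal genes 4 were lower, 1 beyond counting error, with a median of -0.28, and Map2 had 13 and 16 UMIs (0.428, 0.193 to 0.968). Of 7 proneural and Notch genes 3 were higher, with a median of -0.10. The genes of the rule also differed, Pax6 being at 588 against 391 CPM, Sox2 at 304 against 196 CPM and Hoxb9 at 304 against 157 CPM. These are a description, since the rule requires their UMIs and the libraries differ in depth.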

How the data were processed

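The authors deposited, for each library, raw UMI counts per gene and barcode from Cell Ranger, which the labels give as 2.1.1 on mm10 and the matrix header as 6.1.2. Each table held 32285 genes in 15162 wild-type and 13034 Usb1-null barcodes. Members and gene lists were chosen with earlier results of these data known. UMIs were summed over the cells of a set in Python 3.11.15 (numpy 2.4.6, scipy 1.17.1, pandas 2.3.3) and scaled to CPM. Shares have Clopper-Pearson, levels exact Poisson and ratios exact conditional binomial 95% intervals. Log2 ratios had 1 CPM added. Chromosomes came from GENCODE M21 (GRCm38), which held 32235 of the identifiers. Doublets were marked per library with Scrublet in scanpy 1.11.5 at an expected 10%. Named genes were the rule genes, the 8 highest and 8 lowest between libraries with at least 100 UMIs (without rule, mitochondrial and Y-linked genes, Xist and Tsix), 2 per list, 10 each way against hindbrain-like cells, and patterning genes needed to describe a list. Other listed genes beyond counting error, Hedgehog genes by subset, and those named against Otx2 neural and trunk cells were picked after their values were seen. Scripts were tested on simulated data. Some genes that these rules name are not reported here.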

Additional observations from a re-analysis of the deposited data

How the results depend on the processing

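No paired analysis was possible because there was 1 library per genotype, so no value carries the spread between embryos. The share of progenitors in wild-type cells was 0.121% after thinning to 500 UMIs, 0.406% after thinning to 1000, 0.218% with at least 3 neural genes and 0.191% with at least 2 Hox genes, and in Usb1-null cells 0.0823%, 0.448%, 0.860% and 0.668%, with 2.43% once cells with markers of another class were left out. Their ratio was 0.680 (0.288 to 1.52), 1.10, 3.95 and 3.49, and by UMI range 0.542 (0.0627 to 2.14), 1.60, 1.18 and 1.00. The 2 ratios below 1 have intervals that include 1, so a reversal was not resolved. The averages over 100 draws and the UMI ranges were chosen after seeing the data. With at least 2 Hox genes, the dorsal share of wild-type members was 51.7%, the ventral share of Usb1-null members 16.1%, the neuronal share of wild-type members 0% and the caudal share of Usb1-null members 11.5%. After thinning to 1000 UMIs, the dorsal share of Usb1-null members was 30.7%, the ventral shares 8.49% in wild-type and 4.82% in Usb1-null, and the proneural, neuronal and caudal shares of Usb1-null members 2.91%, 0.599% and 1.72%. Genes at least 2-fold higher in Usb1-null progenitors numbered 106 of 5213 tested over all members and 43 of 2115 when cells were thinned. They numbered 3 of 42 in members that met the rule after thinning to 500 UMIs. At a minimum of 200 UMIs they were 11 of 1353, and with no minimum 4232 of 17334. Genes lower numbered 26, 4, 6 and 2083 of the same totals, with 77 of 5213 for means over cells. In members with at least 2 Hox genes, 97 of 1877 were higher and 45 lower. With at least 2 Hox genes the anterior Hox median was 0.73, and the mitosis median, -0.026, and Smad1, -0.054, were reversed. The genes higher and lower than in hindbrain-like cells numbered 6 and 13 at 200 UMIs and 108 and 166 at 1.5-fold, than in Otx2 neural cells 35 and 24, then 206 and 246, and than in trunk cells 93 and 158, then 424 and 787. The cause was not tested, except that fewer genes reach 200 UMIs and fewer transcripts remain after thinning. Of 420 values for 74 named genes, 404 stayed within their intervals, 15 moved and 1 was reversed.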
